A study of Mus musculus with 8 samples.

Results

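The signal recognition particle (SRP) genes studied here were Srp54a, Srp54b and Srp54c, the mouse paralogs for its signal-binding subunit, together with Srp9, Srp14, Srp19, Srp68, Srp72 and the receptor gene Srpr. Their members were all the H3K4me3 peaks that the deposited table assigns to these 9 genes, which came to 8 of 35486 listed peaks. Of the 9 genes, 6 had a listed peak, and Srp54a, Srp72 and Srpr had none under their own names. The genes were selected on the H3K4me3 rise at the promoter peak of Srp54b in KLG4m/m over KL in these same libraries, so the values of that peak are given as a description and no test of it is reported.

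SRP is a complex of proteins on an RNA scaffold that binds the signal sequence of a nascent secreted or membrane protein as it leaves the ribosome. It slows translation and brings the ribosome to the SRP receptor on the endoplasmic reticulum (ER), where the chain passes into the Sec61 channel. H3K4me3 is a histone mark that lies mainly at the promoters of active genes, and CUT&Tag recovers the DNA next to it with an antibody and an enzyme tethered to that antibody, which the protocol of this study names as a micrococcal nuclease fusion.

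Sorted CD45-CD31-EpCAM+ tumor cells came from the lungs of KL mice, a Cre-induced lung tumor model that carries Lkb1fl/fl, and of KLG4m/m mice, which carry Gpx4m/m in addition, with 2 H3K4me3 libraries of each group and parents on a C57BL/6 background. In both groups, intranasal Ad-Cre started the tumors and deleted Lkb1, tamoxifen was given to both, and the cells were taken 10 weeks after Ad-Cre. In the Gpx4m/m allele, exons 5 to 7 of Gpx4 lie between rox sites, and Cre frees a CAG-driven DreERT2 recombinase that removes them after tamoxifen, so the KLG4m/m cells carried every allele of the KL cells plus an inducible loss of Gpx4. The sex and the exact age of the mice behind each library are not given in the sources used here, and the sources differ on the number of mice, with 2 per group in the study's figure legend and another total in the protocol, so p-values measure the spread between these libraries.

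The 4 libraries held 3244495 to 3463731 reads in the listed peaks. Reads per peak differed more between libraries of different groups (chi-square per degree of freedom 2.37 to 2.80) than between the pair of KL (1.13) or KLG4m/m libraries (1.23). The only listed peak of Gpx4 lies at its promoter, outside the deleted exons (242 and 236 KL reads, 304 and 301 KLG4m/m reads), so it does not check the deletion. The 5 epithelial markers (Epcam, Cdh1, Krt8, Krt18 and Krt19) all had a peak and summed to 252 to 253 CPM (reads at the peak per 1000000 reads in all listed peaks) in KL and 207 to 211 in KLG4m/m. By gene, the log2 differences (KLG4m/m over KL) were -0.815 for Epcam, -0.38 for Cdh1, -0.28 for Krt8, 0.07 for Krt18 and 0.11 for Krt19. Of the 6 immune markers, 5 had a peak (Cd79a had none), and they summed to 154 to 157 CPM in KL and 199 to 214 in KLG4m/m. The sort had selected CD45- cells. The 4 of 5 alveolar type 2 and lung markers with a peak summed to 198 to 204 CPM in KL and 152 to 166 in KLG4m/m, and Sftpc, a defining marker, had none. The sums of endothelial (4 of 4 genes with a peak, 128 to 152 CPM in KL and 123 to 142 in KLG4m/m) and fibroblast markers (3 of 4 genes without Col1a2, 64.6 to 71.7 and 69.5 to 72.8 CPM) overlapped between the groups. Single genes differed, with log2 differences of -0.55 for Tek, -0.51 for Cdh5, -0.14 for Kdr and 0.19 for Pecam1. Among fibroblast markers they were 1.29 for Pdgfrb, the weakest of these genes, 0.145 for Col1a1 and -0.08 for Pdgfra. In such bulk libraries, more cells that carry the mark at a promoter and more mark per cell cannot be told apart.

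Srp54a, Srp54b and Srp54c stand in this order on chromosome 12 in a row of 7 annotated genes, with Fam177a, Gm2436, Fam177a2 and Gm2446 between them, and only Srp54b and Srp54c of these 7 had a listed peak under their own names. Sequences near the starts of the paralogs are shown to describe how alike the copies are there. They come from RefSeq windows of the GRCm38.p6 build that reach from 250 bases before to 50 bases after a start, all 3 on the plus strand, and the peak positions given later are those of the deposited table, which uses another build. The first sequence is the stretch between Gm2436 and Srp54b (chr12:55154919-55155103), whose 41 bases in capitals match the Srp54c window exactly. The second is the stretch upstream of Srp54a (chr12:55080246-55080475). Its 14 capitals are bases that were not paired with an identical base in the local alignment to the Srp54c window. The opening run of capitals lies outside that alignment, so single bases in it may still match.
Srp54b: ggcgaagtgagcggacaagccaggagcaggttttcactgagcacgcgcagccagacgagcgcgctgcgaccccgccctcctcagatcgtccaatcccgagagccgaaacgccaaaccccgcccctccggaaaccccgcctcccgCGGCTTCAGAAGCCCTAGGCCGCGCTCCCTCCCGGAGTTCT
Srp54a: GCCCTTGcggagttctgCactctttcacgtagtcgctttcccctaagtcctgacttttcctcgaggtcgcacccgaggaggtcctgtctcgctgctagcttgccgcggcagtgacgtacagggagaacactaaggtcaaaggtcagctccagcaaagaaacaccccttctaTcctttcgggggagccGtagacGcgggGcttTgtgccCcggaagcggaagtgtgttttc

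The capitals of Srp54b open a run of 91 bases that is identical in Srp54b and Srp54c and goes on past the Srp54b start to the end of its window. This run places the annotated start of Srp54b 209 bases upstream of that of Srp54c. By this offset, the run fills all that the windows of Srp54b and Srp54c share. The lower case bases upstream of Srp54b lie before the windows of the other paralogs begin, so their likeness was not examined. Srp54a and Srp54c were alike over most of their windows, with 259 identical positions in 268 aligned columns (96.6%), 7 mismatches and 2 gaps, and the longest identical run was 153 bases. Srp54a and Srp54b shared 58 of 59 aligned positions (98.3%), which is most of the part of the windows that they have in common. In both alignments with Srp54a, bases at the start of the shared part were left out by the local alignment. Their mismatches are not counted in these percentages. Within the aligned part, most of the differences between Srp54a and Srp54c fall in the following stretch (chr12:55080421-55080448 for Srp54a and chr12:55230327-55230356 for Srp54c). Capitals mark the bases that differ or that the other copy lacks.
Srp54a: ttcgggggagccGtagacGcgggGcttT
Srp54c: tAtcGgggggagccAtagacAcgggCcttA

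Reads that fall wholly in such identical runs cannot be assigned to one copy. The promoter peaks begin 350 bp after the Srp54b start and 150 bp after the Srp54c start, beyond the end of the compared windows. How alike the copies are under these peaks was therefore not examined. The study removed reads of low mapping quality, so the counts of Srp54b and Srp54c given here are those of reads that the aligner placed on one copy, and how many were removed is not given in the sources used here.

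A window was at hand for 7 of the 9 genes, with none for Srp19 and Srp68. These 7 windows were GC-rich, at 55.7% (Srp14) to 68.0% (Srpr) against a median of 52.7% over 32851 promoters, and held 18 (Srp72) to 36 (Srpr) CpG dinucleotides against a median of 7. The Srp54b window held 29 CpG dinucleotides, the Srp54a window 24 and the Srp54c window 21. Searched on both strands, with a stretch that holds the letters on both strands counted for each, no window of the 7 held the TATA box letters TATAAA, which 13.6% of all promoters hold. The CCAAT box letters CCAAT were found in 5 of 7 windows, among them all 3 paralogs (37.4% of all promoters), and the GC box letters GGGCGG in 5 of 7 (35.7% of all promoters), with 2 matches at Srp54b, 1 at Srp54a and none at Srp54c. The letters TGACGT, which begin a cAMP response element, had 2 matches each at Srp54a, Srp54c and Srpr and none at the other 4 windows (7.51% of all promoters). None of these motifs contains another, and a match describes the letters only. The Srp54b window is shifted by 209 bases against that of Srp54c and by 234 against that of Srp54a. Counts of letters and CpG dinucleotides that differ between Srp54b and the other paralogs thus come mostly from stretches that were not aligned.

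Srp54b, which encodes a copy of the GTPase subunit that grips the signal sequence, had very few H3K4me3 reads at its promoter in KL tumor cells and several times more in KLG4m/m tumor cells. Its only listed peak lies 350 bp downstream of the start (chr12:55202239-55202639, 400 bp as are the other peaks named here) and gave 7 (replicate 1) and 10 reads (replicate 2) in KL against 46 (replicate 3) and 59 reads (replicate 4) in KLG4m/m. Both KLG4m/m libraries were far above both KL libraries. The level rose from 2.45 ± 0.61 to 15.8 ± 3.5 CPM after TMM scaling, edgeR's correction for library composition (mean ± SD, n = 2 libraries each), a log2 fold change of 2.67 with a standard error of 0.32, or 6.35-fold.

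Among the 17073 promoter peaks (within 1 kb of a start site), the Srp54b peak stood at the 0.404th percentile of level in KL and at the 26.9th in KLG4m/m, so it was one of the weakest promoter peaks in KL and still in the lower part of the range in KLG4m/m. By log2 fold change it ranked 3 among these peaks, which is how it came to be chosen. Its log2 fold change was 2.43 to 2.94 when any one library was left out. The immune marker sum was also higher in both KLG4m/m libraries and the epithelial and lung sums lower, as given earlier, and their part in the Srp54b values was not tested.

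**Figure D1:**
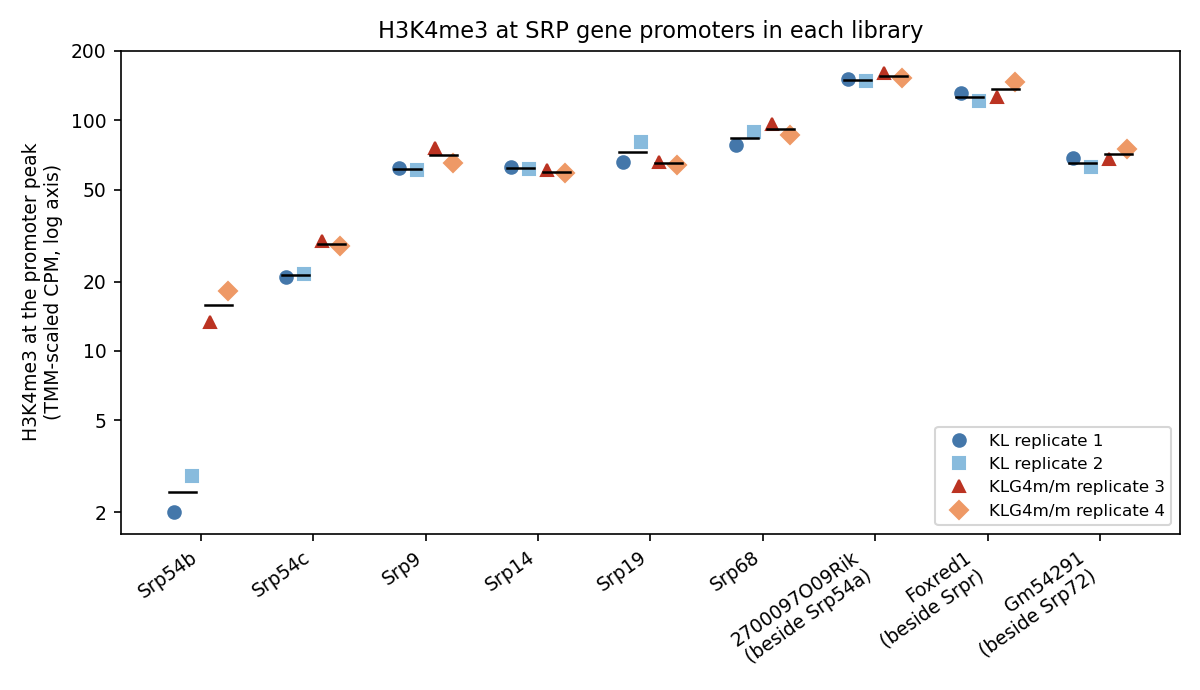
H3K4me3 at the promoter peaks of SRP genes, and at the start-site peaks beside Srp54a, Srpr and Srp72, in TMM-scaled CPM on a log axis. Each point is 1 of 4 libraries and black bars are group means, and the points of Srp54b are set apart between the groups by more than those of any other peak shown.

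Srp54c is the paralog with the more abundant signal, and its promoter peak was also higher in both KLG4m/m libraries, by far less. The peak lies 150 bp downstream of the start (chr12:55277312-55277712) and held 73 and 75 reads in KL and 103 and 92 in KLG4m/m. The groups did not overlap, and the KL libraries lay close together. The level was 21.3 ± 0.43 CPM in KL and 29.2 ± 0.98 CPM in KLG4m/m (SD, n = 2), a log2 difference of 0.45 with a 95% interval of 0.13 to 0.78. The difference did not pass the threshold of 0.05 in edgeR's quasi-likelihood test with Benjamini-Hochberg adjustment over all peaks (adjusted p = 0.0732), nor with reads summed per gene (adjusted p = 0.0508).

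The ratio of the paralogs within a library does not depend on how libraries are scaled. Of the reads in both promoter peaks, Srp54b took 8.75% (95% Wilson interval 4.30 to 17%) and 11.8% (6.52 to 20.3%) in the KL libraries. It took 30.9% (24.0 to 38.7%) and 39.1% (31.7 to 47.0%) in the KLG4m/m libraries. The intervals cover counting error only and are no test, since the Srp54b reads chose the peak, and Srp54c kept the larger share of reads in every library.

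The log2 ratio of Srp54b to Srp54c reads was -3.38 and -2.91 in KL and -1.16 and -0.64 in KLG4m/m. Added together, the peaks of Srp54b and Srp54c went from 23.7 ± 1.0 to 45.0 ± 2.5 CPM (SD, n = 2), or 1.89-fold, of which Srp54b brought 13.4 CPM and Srp54c 7.88 CPM. The identical run can be used to line up the copies if they go on without a gap, which was not checked. The Srp54b peak then covers bases 141 to 541 after the Srp54c start and the Srp54c peak bases 150 to 550. Placed in this way the peaks overlap almost fully, with a shift of 9 bp. Reads of one copy placed on the other would move these shares, and this was not tested.

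**Figure D2:**
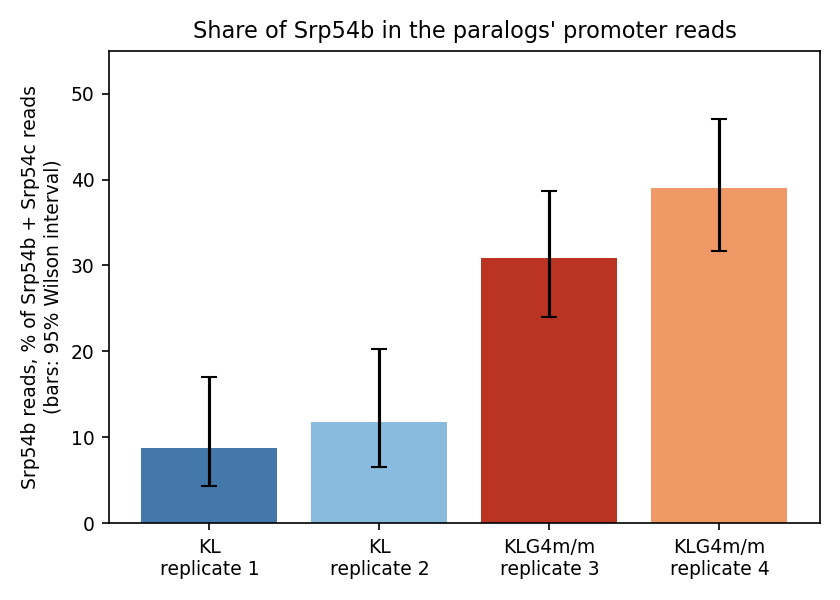
Srp54b reads as a percentage of the Srp54b plus Srp54c promoter reads in each of the 4 libraries, with 95% Wilson intervals as error bars. The KL bars stand at 8.75 and 11.8% and the KLG4m/m bars at 30.9 and 39.1%.

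For Srp54a, the only signal described is that of a peak at the neighbouring gene. It ends short of the Srp54a start if distances from different builds are compared. The start-site peak of 2700097O09Rik (chr12:55126804-55127204), a gene on the opposite strand, reaches 309 bp from that gene's start towards Srp54a, whose start is 386 bp away in the promoter windows of GRCm38.p6. It held 524 and 514 reads in KL and 553 and 491 in KLG4m/m, and the groups overlapped in reads, while after scaling both KLG4m/m libraries were slightly above KL. At the 99.7th percentile of promoter peaks it was among the strongest in the table, at 149 ± 1.9 CPM in KL and 156 ± 5.9 CPM in KLG4m/m (SD, n = 2). The log2 difference was 0.07 with a 95% interval of -0.09 to 0.22 (edgeR's quasi-likelihood test, Benjamini-Hochberg adjusted p = 0.630).

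Srp9 and Srp14 encode the pair of proteins that slow translation, and neither promoter peak passed the test. The Srp9 promoter peak (chr1:181952525-181952925) held 216 and 212 reads in KL and 262 and 210 in KLG4m/m, which is 61.6 ± 0.76 and 70.5 ± 7.8 CPM (SD, n = 2). KLG4m/m replicate 3 was high and replicate 4 had fewer reads than either KL library, and after scaling for depth both were above KL. The log2 difference of 0.20 (95% interval -0.02 to 0.41, edgeR adjusted p = 0.251) came down to 0.07 without KLG4m/m replicate 3.

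The Srp14 peak (chr2:118309879-118310279) held 218 and 214 reads in KL and 210 and 190 in KLG4m/m. These are 62.2 ± 0.76 and 59.9 ± 1.5 CPM (SD, n = 2), slightly lower in both KLG4m/m libraries, with a log2 difference of -0.05 (95% interval -0.27 to 0.16, edgeR adjusted p = 0.796). The levels of Srp9 and Srp14 overlapped in KL and not in KLG4m/m.

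Srp19 encodes the subunit that binds the scaffold and lets the SRP54 protein join it. Its promoter peak (chr18:34463958-34464358) held 228 and 280 reads in KL and 227 and 207 in KLG4m/m. KL replicate 2 was high and the other 3 libraries were close together, so that the log2 difference of -0.17 (95% interval -0.39 to 0.05, edgeR adjusted p = 0.342) was -0.01 without that library. The groups overlapped after scaling, at 73.1 ± 11 CPM in KL and 65.0 ± 1.2 CPM in KLG4m/m (SD, n = 2).

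Srp68, whose product forms a dimer with that of Srp72 on the scaffold, had the strongest promoter peak of the members with a peak of their own. The peak (chr11:116164837-116165237) held 272 and 310 reads in KL and 331 and 279 in KLG4m/m, and the groups overlapped at 83.8 ± 7.8 and 91.2 ± 6.8 CPM (SD, n = 2). The log2 difference was 0.12 with a 95% interval of -0.07 to 0.32 (edgeR adjusted p = 0.448).

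Inside the Srp68 gene, a pair of weak peaks differed in opposite directions without passing the test. The peak at exon 4 (chr11:116156261-116156661, 8.38 kb from the start) held 27 and 21 reads in KL and 38 and 31 in KLG4m/m, with a log2 difference of 0.58 (95% interval 0.02 to 1.13, edgeR adjusted p = 0.182). The peak in intron 8 (chr11:116151071-116151471, 13.6 kb from the start) held 21 and 28 reads in KL and 15 and 11 in KLG4m/m, with a log2 difference of -0.85 (95% interval -1.56 to -0.14, edgeR adjusted p = 0.122). Neither peak's groups overlapped, and at these read numbers the counting error is a large part of each value. Summed over its 3 peaks, Srp68 had a log2 difference of 0.11 (95% interval -0.07 to 0.28, edgeR adjusted p = 0.438).

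Srp72 and Srpr, which encodes the receptor subunit that meets SRP54, were again seen only beside a neighbour. The start-site peak of Foxred1 (chr9:35122100-35122500) reaches 141 bp towards Srpr, whose start is 148 bp away in the GRCm38.p6 windows. It held 457 and 420 reads in KL and 435 and 472 in KLG4m/m, with overlapping groups at the 99.1st percentile of promoter peaks and a log2 difference of 0.11 (95% interval -0.07 to 0.28, edgeR adjusted p = 0.462).

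For Srp72, the peak assigned to Gm54291 (chr5:77122436-77122836) lies 23.3 to 23.7 kb from the start of Paics in the deposited table, and the start of Srp72 lies 23.4 kb from that of Paics in GRCm38.p6. It held 238 and 217 reads in KL and 234 and 243 in KLG4m/m. The groups overlapped, with a log2 difference of 0.13 (95% interval -0.09 to 0.34, edgeR adjusted p = 0.480). On these distances, the peaks beside Srp54a and Srpr ended short of the start of the SRP gene. The reach and the gap between starts come from different builds, and at Srpr they are close (141 and 148 bp). Whether the peak ends short there is therefore uncertain. In all 3 regions the mark of the SRP gene and that of its neighbour cannot be told apart.

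Srp54b is left out of the member and neighbour counts that follow, since it was chosen for its rise. The counts over all peaks, all genes or all of chromosome 12 include it. Of all listed peaks, 3.10% were called higher in KLG4m/m, 5.52% lower and 8.62% either way. Of the other 7 member peaks none was called by edgeR, while 3 had an unadjusted p under 0.05 (the Srp54c promoter and the exon and intron peaks of Srp68). DESeq2 called none and gave none of these 7 an unadjusted p under 0.05, and it gave an adjusted p for 5 of them.

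The median log2 difference of these 7 peaks was 0.12, with a range of -0.85 to 0.58, against 0.01 over all peaks. The groups did not overlap in scaled level at 3 of the 7 in the higher and 2 in the lower direction, and 54.2% of all listed peaks did not overlap either. With reads summed per gene, edgeR called none of the other 5 member genes with a peak, against 5.38% of all genes called higher, 9.63% lower and 15% either way. Their median log2 difference was 0.11.

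**Figure D3:**
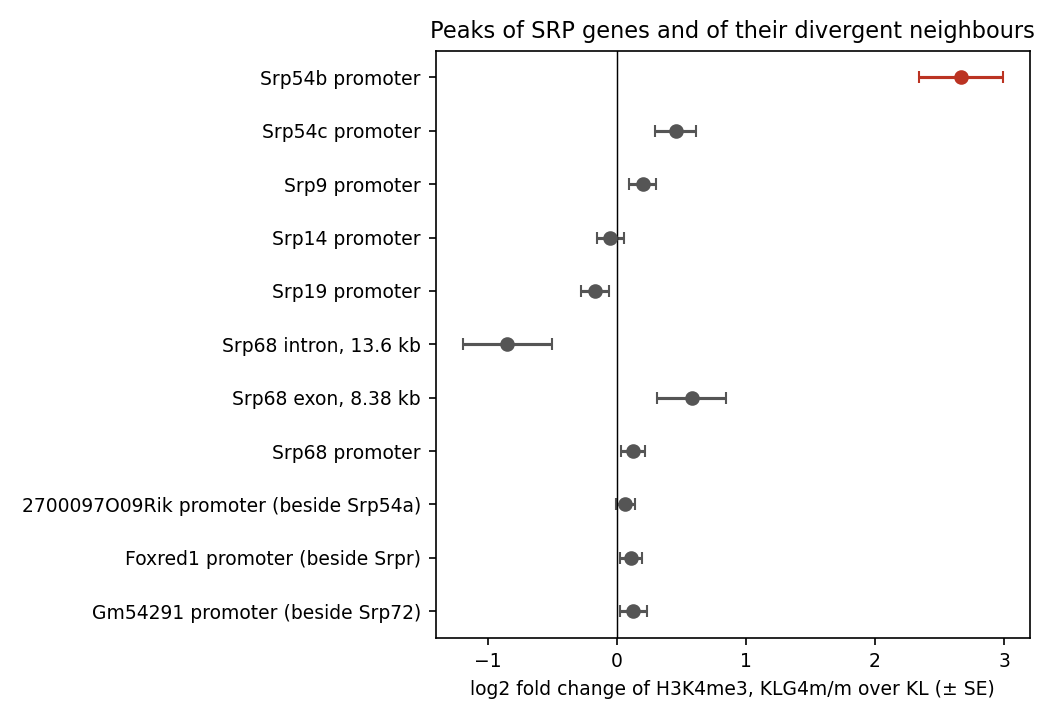
Log2 fold change of H3K4me3 (KLG4m/m over KL) with its standard error for the 8 member peaks and the 3 start-site peaks beside Srp54a, Srpr and Srp72. Srp54b stands at 2.67 and every other peak between -0.85 and 0.58, of which none passed the test.

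Ordered by promoter level, the KL libraries gave Srp68, Srp19, Srp14, Srp9, Srp54c and Srp54b, from 83.8 down to 2.45 CPM over windows of equal length. Srp68 overlapped with Srp19, and Srp14 with Srp9, while the other neighbours in this order did not overlap. In KLG4m/m the order was Srp68, Srp9, Srp19, Srp14, Srp54c and Srp54b, from 91.2 to 15.8 CPM, and only Srp9 and Srp19 overlapped. Srp54b was the lowest member in both groups.

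Around Srp54b on chromosome 12, no other peak was called higher. Within 500 kb on either side, 33 other peaks were assigned to 20 genes, and none was called higher by edgeR and 2 were called lower, against 3.10% and 5.52% of all peaks. At an unadjusted p under 0.05, 4 were higher and 3 lower by edgeR, and by DESeq2 0 were higher and 2 lower. Their median log2 difference was 0.07, with a range of -0.90 to 1.02. On all of chromosome 12, with Srp54b included, 55 of 1387 peaks were called higher and 85 lower.

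Both peaks that fell are promoters upstream of Srp54b. Cfl2, which encodes a cofilin that severs actin filaments, lies 293.1 kb away and its promoter peak fell from 220 and 206 reads to 115 and 105, with a log2 difference of -0.90 and a standard error of 0.12 (edgeR's quasi-likelihood test, Benjamini-Hochberg adjusted p = 3.68e-05). Snx6, which encodes a sorting nexin of the retromer, lies 360.0 kb away and its promoter peak held 143 and 152 reads in KL and 106 and 101 in KLG4m/m. Its log2 difference of -0.45 ± 0.13 (SE) passed in edgeR (adjusted p = 0.0347) but not in DESeq2 (adjusted p = 0.476) nor with any library left out. Neither call held without KLG4m/m replicate 3 or replicate 4, when no peak in the table was called.

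The highest of the neighbours was a weak peak 2.02 kb upstream of a start of Baz1a, a chromatin remodelling subunit gene, 139.1 kb from Srp54b. It held 11 and 16 reads in KL and 24 and 29 in KLG4m/m, with a log2 difference of 1.02 (95% interval 0.33 to 1.72, edgeR adjusted p = 0.0555). The other 3 Baz1a peaks had log2 differences of -0.11 to 0.26, and the strongest of these held 183 and 186 reads in KL and 199 and 196 in KLG4m/m.

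On the other side, the promoter peaks of Prorp (147.1 kb, a subunit of mitochondrial RNase P), Psma6 (243.2 kb, a proteasome subunit) and Nfkbia (337.1 kb, an inhibitor of NF-kappaB) had log2 differences of 0.07, 0.15 and 0.20. None of these passed the edgeR test (adjusted p for Nfkbia = 0.183). The peak of Insm2 at the edge of the window (444.7 kb, 43 and 26 reads in KL and 22 and 20 in KLG4m/m) had a log2 difference of -0.66 and that of Gm36634 (343.5 kb) one of 0.74, and neither passed. The remaining peaks, those of Gm40884, Eapp, Rpl31-ps17, Gm23804, Gm25679, Gm26444, Gm24305, Gm24296, Gm36571, Aldoart2 and the peaks of Cfl2, Psma6 and Nfkbia away from their promoters, had log2 differences of -0.59 to 0.52 with none called.

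**Figure D4:**
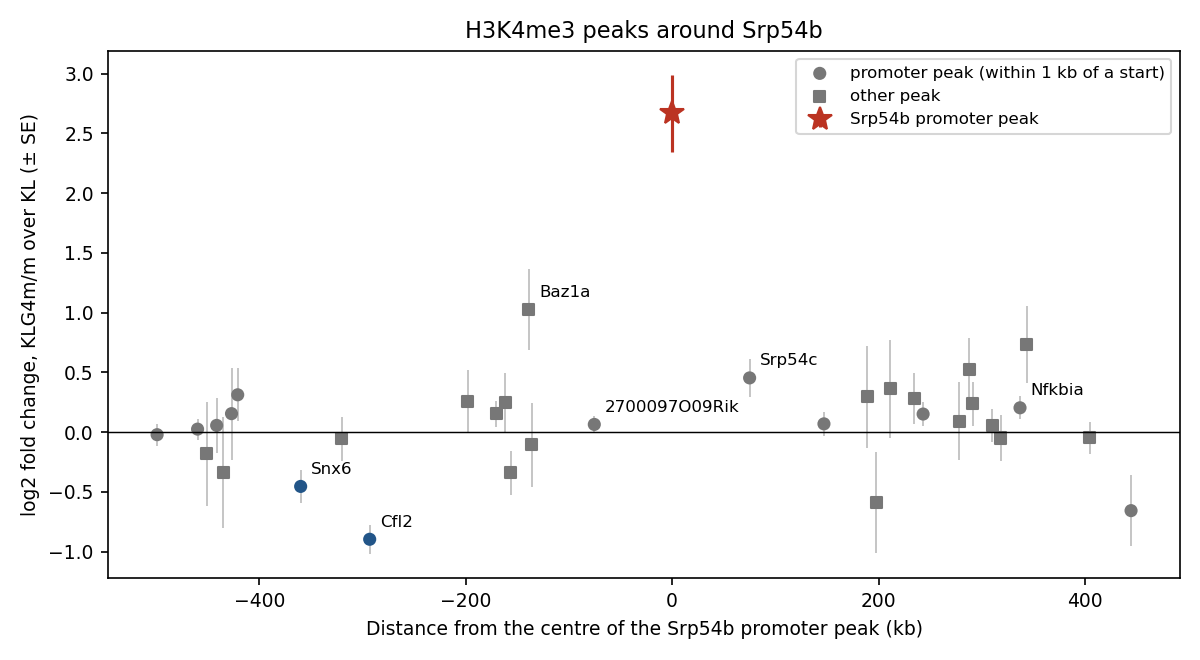
Log2 fold change (KLG4m/m over KL, with standard error) of the 33 peaks within 500 kb of the Srp54b promoter peak against their distance from its centre in kb. The star is Srp54b at 2.67, blue points are the promoter peaks of Cfl2 and Snx6 that passed the test, and every other peak lies at 1.02 or less.

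For entry into the ER, 52 genes of targeting, the translocon, signal peptidase, glycosylation and tail-anchored insertion were examined with reads summed over each gene's peaks. A peak was listed for 43 of them (Sec61a2, Sec61b, Ssr4, Spcs1, Stt3a, Dad1, Camlg, Emc8 and Pdia3 had none). None of the 43 was called higher by edgeR, with 4 higher at an unadjusted p under 0.05 and 0 by DESeq2, and 5 were called lower. Over all genes, 5.38% were called higher and 9.63% lower. The median log2 difference of the 43 was 0.06, against 0.00 over all genes, with 26 above 0 and 17 below.

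With reads summed per gene, Sec63, which works with Sec62 at the Sec61 channel, fell most, while at the promoter peak alone Rrbp1 fell more. The Sec63 gene's single promoter peak held 139 and 144 reads in KL and 65 and 54 in KLG4m/m, and the log2 difference was -1.19 (95% interval -1.51 to -0.87, edgeR adjusted p = 6.9e-09). Rrbp1, a ribosome-binding protein of the rough ER, fell by 1.10 in log2 units (edgeR adjusted p = 2.03e-05), with 52 and 73 reads at its promoter in KL and 15 and 20 in KLG4m/m. At the promoter peak alone the Rrbp1 log2 difference was -1.77, and its intron peak (23 and 19 reads against 22 and 18) had one of -0.01. Both genes were also past the threshold in DESeq2 (adjusted p = 0.000421 and 0.0292).

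The other 3 fell by less and did not pass in DESeq2. Get4, a factor of tail-anchored protein targeting, fell by 0.55 in log2 units (edgeR adjusted p = 0.000193), with 201 and 206 promoter reads in KL and 126 and 112 in KLG4m/m. Ssr1, a translocon-associated subunit, fell by 0.47 (edgeR adjusted p = 0.00285), with 197 and 175 promoter reads against 115 and 103. Its promoter peak alone had a log2 difference of -0.71, and its other peak (24 and 24 reads against 39 and 35) one of 0.68 that did not pass (edgeR adjusted p = 0.102). Spcs3, a signal peptidase subunit, fell by 0.36 (edgeR adjusted p = 0.00642), with 275 and 251 promoter reads against 188 and 187. In scaled level, the groups did not overlap at 13 of the 43 genes in the higher and 12 in the lower direction. Over all 20871 genes with a peak, these counts were 5833 and 6000. The groups did not overlap at any of these 5 genes, and none of the 5 was past the threshold without KLG4m/m replicate 3 or replicate 4. Without KL replicate 1, Ssr1 (edgeR adjusted p = 0.0970) and Spcs3 (edgeR adjusted p = 0.134) did not pass either.

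Srprb, the partner of Srpr in the receptor, had 184 and 219 promoter reads in KL and 228 and 238 in KLG4m/m. Both KLG4m/m libraries were above KL, with a log2 difference of 0.27 (95% interval 0.04 to 0.49, edgeR adjusted p = 0.130), and over its 5 peaks the difference was 0.10 (edgeR adjusted p = 0.461). The channel subunit gene Sec61a1 had a log2 difference of -0.18 and Sec62 one of -0.03, neither of which passed.

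**Figure D5:**
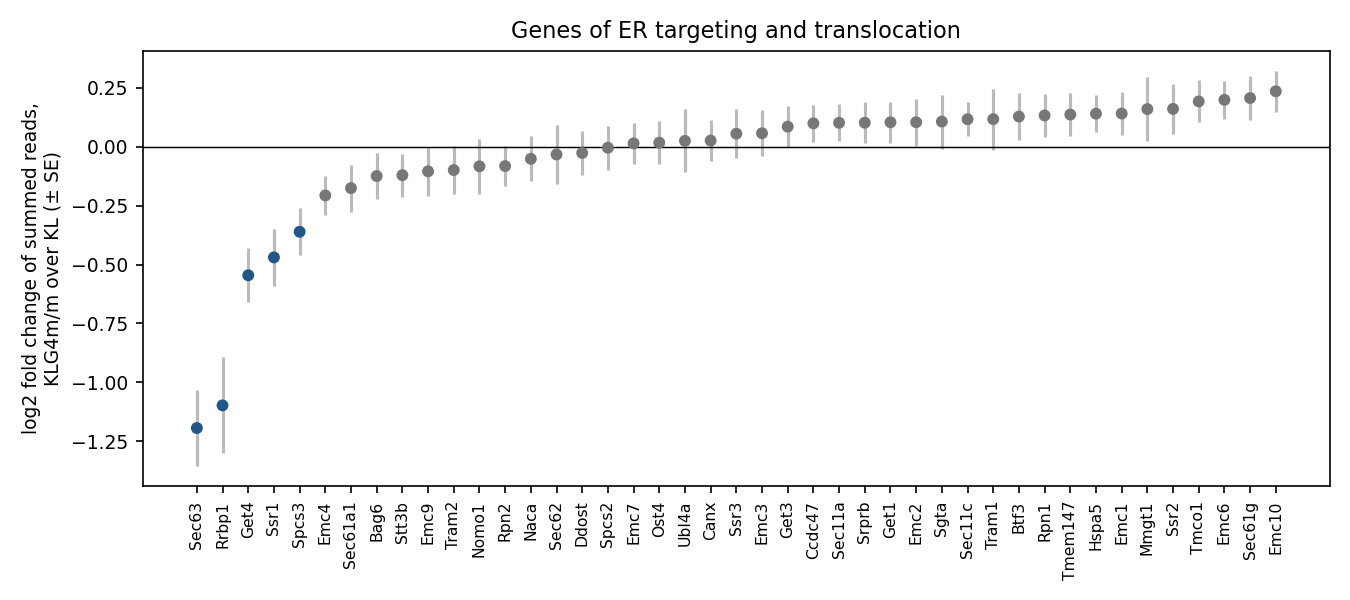
Log2 fold change of H3K4me3 reads summed per gene (KLG4m/m over KL, with standard error) for the 43 genes of ER targeting and translocation with a listed peak, in rising order. Blue marks the 5 genes that passed the test, all lower, from Sec63 at -1.19 to Spcs3 at -0.36, and grey the 38 that did not.

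Across the 4 libraries, the promoter peaks whose centred log2(CPM + 1) values were nearest to those of Srp54b, among 16045 candidates, were those of Il4, Gm34704, P2rx1, Pkp1 and Gm35891, at Euclidean distances of 0.75, 0.86, 0.98, 1.12 and 1.12. Il4, a cytokine gene of T helper cells, held 8 and 6 reads in KL and 30 and 30 in KLG4m/m. P2rx1, an ATP-gated channel gene, held 10 and 12 against 44 and 30, and Pkp1, a desmosomal plakophilin gene, held 10 and 10 against 42 and 25. Gm34704 (38 and 40 against 113 and 110) and Gm35891 (15 and 17 against 41 and 39) are predicted genes. These peaks were ranked by likeness to a chosen pattern, so their rise is no separate result.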

How the data were processed

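H3K4me3 CUT&Tag was measured in 4 libraries, and the H3K27ac libraries were not analysed here. Per the labels and the study's methods, the authors trimmed reads (Trim Galore 0.6.10), mapped them (BWA 0.7.15), removed mitochondrial, low-quality and duplicate reads (Picard 2.17.3), called peaks (MACS2 2.2.7.1) and named genes (HOMER 4.11.1). The deposited table holds whole read counts per peak, the authors' CPM and the distance to a start site. The methods name an Ensembl mouse genome release that is based on GRCm38, but the deposited positions differ from GRCm38 positions, so the build is uncertain. How peaks were merged is not given in the sources used here. The authors' fold changes and p-values, in the same table, were not used.

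Counts were tested with edgeR's quasi-likelihood test (edgeR 4.0.16, TMM scaling, no filter, no covariate, two-sided), with Benjamini-Hochberg adjustment over 35486 peaks, or over 20871 genes after summing, and a threshold of 0.05. The table's one peak that is not 400 bp long belongs to no gene named here. With 2 libraries a group, an exact permutation test cannot go below p = 0.333. CPM values were recomputed with TMM scaling, and a mean ± SD is over 2 libraries. The test was also run on simulated counts with the same dispersion (0.0013) for every peak, in which only well-covered peaks were changed. That run does not cover weak peaks such as that of Srp54b. Window sequences were aligned locally with Biopython 1.88 (match 1, mismatch -2, gap opening -4, gap extension -1). Named genes were all members, all genes with a peak within 500 kb of the Srp54b peak, the ER genes past the threshold and the 5 promoter peaks nearest in pattern (mean of at least 5 CPM, pseudocount 1). Sec61a1, Sec62, Srprb and the genes beside Srp54a, Srp72 and Srpr were named in addition after their values were seen. The members and lists were chosen with earlier results of these data known. Alternatives were RLE size factors, total reads, DESeq2 1.42.0, a filter at 10 CPM, the peak nearest the start, other windows and leaving out each library. One allele that both groups share is not reported here.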

Additional observations from a re-analysis of the deposited data

How the results depend on the processing

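No paired analysis was possible because the groups share no replicate number. The main limit is the 2 libraries a group. Without KLG4m/m replicate 3 or replicate 4, edgeR called 0 of 35486 peaks (5486 and 5178 at an unadjusted p under 0.05), and without KL replicate 2 it called 1482. The cause was not tested. The count over all peaks was thus 0 to 2161 with a library left out, against 3059, and 283 by DESeq2. In the same way the count of member peaks and of summed member genes past the threshold was 0 to 1 (Srp54b, whose call follows from its choice), that of chromosome 12 neighbours 0 to 2 and that of ER genes 0 to 5. The filter at a mean of 10 CPM left 0 member peaks past the threshold because it removes Srp54b itself, whose mean is 9.13 CPM. DESeq2 left 1 neighbour (Cfl2, adjusted p = 0.00237) and 2 ER genes. A window of 200 kb held 0 called neighbours, with 2 at an unadjusted p under 0.05 by edgeR and 0 by DESeq2. One of 1000 kb held 4, the 2 more being peaks of Egln3 that were higher (log2 differences of 0.50 and 0.47, edgeR adjusted p = 0.0408 and 0.00881), named after their values were seen. No result changed direction under any alternative run. The Srp54b log2 fold change was 2.66 to 2.69 under RLE, total reads and DESeq2. Adjusted p over the alternatives was 0.0714 to 0.632 for the Srp54c peak and 0.0502 to 0.468 with its reads summed per gene. At peaks of under 30 reads the counting error limits what can be seen.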
